A study of Homo sapiens with 24 samples.

Results

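The genes described here are 9 sensors of double-stranded RNA and their closest partners, RIGI (DDX58 in older tables), IFIH1, DHX58, MAVS, TLR3, EIF2AK2, ADAR, ZBP1 and TRIM25. They were chosen by name and matched to Ensembl identifiers, and all 9 were found among the 60236 genes of the count table. Poly(A)+ RNA-seq was analysed from 24 libraries, 3 for each of 4 plasmids in each of 2 human cell lines, collected 48 h after transfection. The lines were HEK293T, an embryonic kidney line, and A549, a lung adenocarcinoma line. Every library came from cells that received a plasmid in a lipid reagent, so no untreated cells were compared. The plasmids expressed snaR-A (a small RNA polymerase III noncoding RNA) or its scrambled sequence from a U6 promoter, or FLAG-tagged SF3B2 (a splicing factor subunit) or FLAG-tagged eGFP from a pcDNA3.1 backbone. eGFP and scramble therefore differ in the backbone and promoter as well as in the product. The study's methods call the 3 replicates of a group biological and say that they were handled on a single day, but the labels do not say which libraries shared a culture, so the p-values measure the spread between these libraries.

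Cells recognize long or uncapped double-stranded RNA as a sign of infection. RIG-I (RIGI) and MDA5 (IFIH1) are cytosolic helicases that signal through the mitochondrial adaptor MAVS, LGP2 (DHX58) modulates both, and the ubiquitin ligase TRIM25 acts on RIG-I. TLR3 detects double-stranded RNA in endosomes, PKR (EIF2AK2) halts translation once bound to it, ZBP1 senses Z-form nucleic acid and can start necroptosis, and ADAR edits adenosines in double-stranded RNA so that it is less readily sensed. Most of these genes are themselves induced by interferon, which acts through ISGF3 at interferon-stimulated response elements (ISREs).

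The promoters of 7 of the 9 genes were in the RefSeq table for GRCh38.p14, each as 250 bases before to 50 after the start. DHX58 and ZBP1 had no entry. The stretch from 250 bases before to 20 after the start is printed here, 5′ to 3′ on the strand of the gene. Printed are 5 genes that held a motif and changed with eGFP in A549, and MAVS, where no motif was found. ADAR also changed with eGFP in A549 but held no motif, and is not printed. Capitals mark an ISRE core (GAAANNGAA, on either strand) or a shorter interferon regulatory factor core (AANNGAAA, on either strand), and these can overlap.
RIGI chr9:32526177-32526446 (minus strand): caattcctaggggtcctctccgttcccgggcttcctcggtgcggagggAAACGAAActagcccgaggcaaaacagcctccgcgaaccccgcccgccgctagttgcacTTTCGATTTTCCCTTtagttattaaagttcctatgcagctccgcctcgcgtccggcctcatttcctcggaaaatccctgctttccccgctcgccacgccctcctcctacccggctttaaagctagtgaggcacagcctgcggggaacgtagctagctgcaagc
IFIH1 chr2:162318665-162318934 (minus strand): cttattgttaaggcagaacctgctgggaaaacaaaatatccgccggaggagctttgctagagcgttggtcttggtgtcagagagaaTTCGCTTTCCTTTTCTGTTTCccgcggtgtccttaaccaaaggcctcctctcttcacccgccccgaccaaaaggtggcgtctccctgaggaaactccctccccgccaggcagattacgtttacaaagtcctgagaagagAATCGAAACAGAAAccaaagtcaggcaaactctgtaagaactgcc
TLR3 chr4:186068906-186069175 (plus strand): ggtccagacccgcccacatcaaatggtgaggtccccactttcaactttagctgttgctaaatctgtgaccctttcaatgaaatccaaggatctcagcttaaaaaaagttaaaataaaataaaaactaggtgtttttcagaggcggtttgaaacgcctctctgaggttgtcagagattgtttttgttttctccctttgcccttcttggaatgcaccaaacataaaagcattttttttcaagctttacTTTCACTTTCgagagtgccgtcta
EIF2AK2 chr2:37156961-37157230 (minus strand): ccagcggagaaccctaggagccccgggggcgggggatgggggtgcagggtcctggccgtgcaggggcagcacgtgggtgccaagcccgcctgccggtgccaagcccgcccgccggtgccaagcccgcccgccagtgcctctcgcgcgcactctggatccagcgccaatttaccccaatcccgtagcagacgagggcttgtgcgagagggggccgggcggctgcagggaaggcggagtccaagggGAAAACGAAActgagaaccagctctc
TRIM25 chr17:56914030-56914299 (minus strand): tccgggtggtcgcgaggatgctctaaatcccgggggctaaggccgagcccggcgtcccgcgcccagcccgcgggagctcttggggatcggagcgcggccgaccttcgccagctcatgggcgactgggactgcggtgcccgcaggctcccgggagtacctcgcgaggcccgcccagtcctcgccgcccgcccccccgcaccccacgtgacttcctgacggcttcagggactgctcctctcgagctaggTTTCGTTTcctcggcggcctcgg
MAVS chr20:3846584-3846853 (plus strand): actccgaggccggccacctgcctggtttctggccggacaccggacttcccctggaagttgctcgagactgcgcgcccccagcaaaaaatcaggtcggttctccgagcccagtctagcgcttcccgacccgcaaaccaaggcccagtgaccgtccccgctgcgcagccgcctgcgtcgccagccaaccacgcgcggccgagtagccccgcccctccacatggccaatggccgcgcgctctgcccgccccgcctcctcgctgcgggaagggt
The ISRE core was in 2847 of the 35116 promoters of the table (8.1%) and in 3 of the 7 matched genes, namely IFIH1, TLR3 and EIF2AK2. IFIH1 held 4 such cores, whose first bases lay at -164, -158, -152 and -21 from the start. TLR3 held 1 at -3 and EIF2AK2 held 1 at -6, both across the start itself. The shorter core, added after the promoters had been seen, was in 22.8% of all promoters and in 5 of the 7 genes, at -202, -143 and -136 in RIGI and at -3 in TRIM25. A gamma-activated site (TTCNNNGAA, which reads the same on both strands) was in 7.7% of promoters and, among these genes, in TLR3 only, at -178 and -50. MAVS and the 3 entries of ADAR held none of the 3 motifs, which says only that these letters are not in these windows. Whether a motif goes with a response was not tested.

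Before the comparisons, 4 libraries needed a remark. Library totals lay between 195186194 and 260878268 estimated counts, which puts the limit of a listed 0 (3 counts) at 0.0115 to 0.0154 CPM. CPM stands for counts scaled by the TMM-normalized total of each library, except in this limit, which uses the raw totals. HEK293T eGFP replicate 3 held 755 CPM of the summed 8 A549 markers, with all 8 at 1 CPM or more, against 20150 to 22330 CPM in A549. HEK293T SF3B2 replicate 3 held 27.4 CPM, with AKR1B10 at 4.77 CPM against 0.237 and 0.309 CPM in the other libraries of its group, and had 2 of the 8 markers under 1 CPM. The other 10 HEK293T libraries held 7.64 to 16.99 CPM, each with 5 of the 8 under 1 CPM. A549 scramble replicate 3 held 8773 CPM of SF3B2, against 340.1 and 371.5 CPM in the other A549 scramble libraries and 45570 to 48890 CPM in A549 transfected with SF3B2. For the third snaR-A library of A549 the labels name both cell lines in different fields. It was kept as A549, and its summed A549 markers (20350 CPM) lay within the A549 range. The 6 HEK293T markers summed to 415 to 767 CPM in HEK293T and to 146 to 186 CPM in A549, but one of them, INA, went against its label at 18.3 to 29.4 CPM in HEK293T and 106 to 148 CPM in A549, and made up most of the A549 sum. NEFM was at 128 to 389 CPM in HEK293T and 0.495 to 1.14 CPM in A549, and CDKN2A at 42.5 to 77.0 CPM and 0 to 0.0511 CPM. For the sensor genes, values without the libraries that stand apart follow the results below.

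With the scramble plasmid alone, all 8 of the sensor genes that could be tested were higher in A549 than in HEK293T. The gap was widest for the cytosolic RNA helicases RIG-I and MDA5 and narrowest for the editing enzyme ADAR. Of all 23124 genes tested between the lines, 38.2% were called higher in A549 (adjusted p under 0.05 in edgeR's quasi-likelihood test with Benjamini-Hochberg adjustment), so that a call in this direction was common among genes at large. The median log2 difference was 1.82 over the 8 sensor genes and -0.01 over all genes.

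RIGI (chr9:32455302-32526208, minus strand) lay at 73.8, 53.0 and 43.3 CPM in the A549 scramble libraries and at 2.67, 2.38 and 2.01 CPM in those of HEK293T. The lowest A549 library was far above the highest HEK293T library. The log2 difference was 4.53 ± 0.22 (SE, n = 3 against 3, edgeR adjusted p = 2.77e-07). A same-strand gene without a symbol, ENSG00000288684, overlaps RIGI and shares 45.7% of its transcripts' 31-base words, so reads between the pair are split by estimate. In HEK293T that gene was of the same order as RIGI, at 1.34 to 3.57 CPM, and in A549 it lay at 3.27 to 9.89 CPM. When both were summed, the difference between the lines was 3.81 (edgeR adjusted p = 5.32e-08).

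IFIH1 (chr2:162267074-162318684, minus strand), the MDA5 gene, lay at 19.3, 14.4 and 12.8 CPM in A549 and at 1.38, 1.52 and 1.53 CPM in HEK293T. These groups did not overlap either, and the log2 difference was 3.33 ± 0.17 (SE, edgeR adjusted p = 3.68e-07). DHX58 (chr17:42101404-42112714, minus strand) was low in both lines, at 0.434, 0.418 and 0.519 CPM in A549 and at 0.297, 0.213 and 0.287 CPM in HEK293T. Its difference of 0.72 ± 0.22 passed the test (edgeR adjusted p = 0.0152), but not when libraries were scaled by their totals alone (0.33, edgeR adjusted p = 0.231) or without HEK293T scramble replicate 2 (0.58, edgeR adjusted p = 0.052).

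MAVS (chr20:3846799-3876123, plus strand), the adaptor of both helicases, lay at 228, 230.2 and 222 CPM in A549 and at 91.0, 89.9 and 97.5 CPM in HEK293T. Its log2 difference was 1.23 ± 0.05 (SE, edgeR adjusted p = 1.48e-07). TLR3 (chr4:186068911-186088073, plus strand) lay at 3.24, 2.31 and 2.64 CPM in A549 and at 0.598, 1.11 and 0.542 CPM in HEK293T, a difference of 1.80 ± 0.30 (SE, edgeR adjusted p = 0.000555). For both genes every A549 library was above every HEK293T library.

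EIF2AK2 (chr2:37099210-37157522, minus strand), which encodes PKR and overlaps GPATCH11 on the opposite strand, lay at 504, 436 and 339 CPM in A549 and at 109, 121 and 115 CPM in HEK293T. The log2 difference was 1.83 ± 0.14 (SE, edgeR adjusted p = 3.92e-06). TRIM25 (chr17:56836387-56914080, minus strand) differed by 1.87 ± 0.06 (SE, edgeR adjusted p = 2.98e-08), with 198 to 214 CPM in A549 and 51.2 to 56.2 CPM in HEK293T. Both lines thus expressed the kinase and the ligase well, and the A549 libraries stood above those of HEK293T throughout.

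ADAR (chr1:154581695-154628013, minus strand) was nearest to equal, at 382, 366 and 407 CPM in A549 and 296, 302 and 296 CPM in HEK293T. Its difference of 0.31 ± 0.06 (SE, edgeR adjusted p = 0.00209) turned to -0.09 when libraries were scaled by their totals alone, a scaling that moved the median of all genes from -0.01 to -0.41 and the share of higher calls among all calls from 49.2% to 35.1%. Relative to that shift ADAR stayed on the higher side. ZBP1 (chr20:57603846-57620576, minus strand) had 41, 3 and 12 counts in the A549 scramble libraries and 2, 3 and 5 in those of HEK293T, too few to pass the low-count filter. Where leaving out a library let ZBP1 through, it was higher in A549 by 2.55 to 3.38 (log2, edgeR adjusted p = 0.00441 to 0.0796). There it passed through its A549 libraries, so only a higher call was open to it. The other settings that tested it gave edgeR adjusted p of up to 0.0129. Without A549 scramble replicate 3 all 8 tested genes were still called, with log2 differences of 4.70 for RIGI, 3.46 for IFIH1, 0.62 for DHX58 (edgeR adjusted p = 0.049), 1.25 for MAVS, 1.83 for TLR3, 1.98 for EIF2AK2, 0.27 for ADAR and 1.90 for TRIM25. In bulk RNA, fewer cells expressing a gene and less RNA per cell cannot be told apart.

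Compared per kilobase of exon, the order of the genes differed between the lines. In HEK293T with scramble, ADAR was highest at 24.3 ± 0.285 CPM per kb (SD, n = 3), followed by EIF2AK2 at 10.4 ± 0.52, MAVS at 7.88 ± 0.348 and TRIM25 at 4.39 ± 0.232. The receptors were far lower there, with IFIH1 at 0.283 ± 0.0157 CPM per kb, RIGI at 0.227 ± 0.0321 and TLR3 at 0.10 ± 0.0417. Only TLR3 and DHX58, at 0.0696 ± 0.012 CPM per kb, overlapped between neighbours in that order. In A549 with scramble, EIF2AK2 at 38.6 ± 7.51 and ADAR at 31.4 ± 1.7 CPM per kb overlapped at the top, and RIGI (5.48 ± 1.51) stood above IFIH1 (2.96 ± 0.646). ZBP1 was last in all 8 groups. Effector and editor were thus the most abundant in both lines, and helicases, TLR3 and ZBP1 the least.

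**Figure D1:**
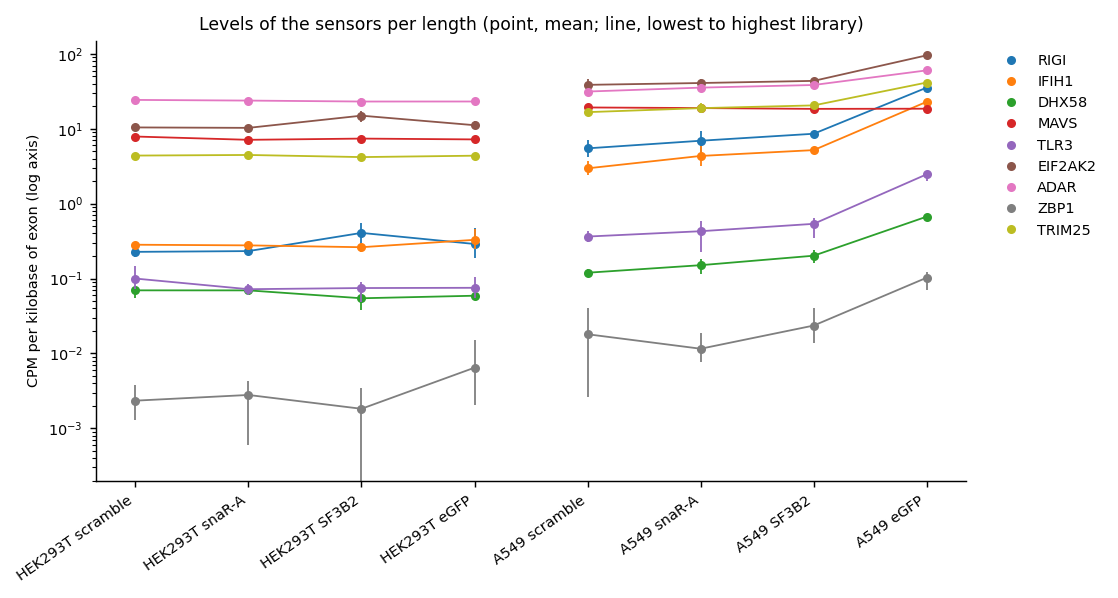
Mean level of each of the 9 genes per kilobase of exon (CPM per kb, logarithmic axis) in the 8 groups of cell line and plasmid. Points are means of 3 libraries and vertical lines run from the lowest to the highest library, with a ZBP1 line down to the axis where a library is at 0. ADAR leads in every HEK293T group and EIF2AK2 in every A549 group, and with eGFP in A549 RIGI (35.5) and IFIH1 (23.0) pass MAVS (18.55).

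The other genes of these pathways also differed between the lines, but not in one direction. Of 45 tested genes from a list of 50 chosen by role, 29 were higher and 11 were lower in A549, where 38.2% and 39.3% of all genes were called in these directions. Of the oligoadenylate synthetases, which are activated by double-stranded RNA, OAS1 was at 137 ± 1.71 CPM in A549 and 0.187 ± 0.0465 CPM in HEK293T (SD, n = 3), a log2 difference of 9.45 ± 0.14 (SE, edgeR adjusted p = 5.13e-10). OAS2, near the limit in HEK293T at 0.0277, 0.0280 and 0.0123 CPM, differed by 8.68 ± 0.25, OASL by 5.45 ± 0.24 and OAS3 by 5.24 ± 0.08. Below the adaptors, 8 of 9 tested signalling genes were higher in A549, among them TICAM1 (the TLR3 adaptor TRIF) by 2.34 ± 0.10, TBK1 by 1.48 ± 0.06, NFKB1 by 1.35 ± 0.05 and TANK by 1.08 ± 0.06. Among regulators of the RIG-I-like receptors, RNF125, a ligase known to restrain RIG-I, was lower in A549 at 1.56 ± 0.172 CPM against 46.8 ± 1.51 CPM in HEK293T, and DDX60 was higher by 2.57 ± 0.10. Among partners of ZBP1 in cell death, MLKL, the executor of necroptosis, lay at 32.3 ± 1.06 CPM in A549 and at 0.192 ± 0.09 CPM in HEK293T, and CASP8 was higher by 1.53 ± 0.08. On the PKR axis 4 of 7 genes were higher and 2 lower, with PPP1R15A higher by 2.42 ± 0.10 and DDIT3 by 2.10 ± 0.11. UNC93B1, which carries TLR3 to endosomes, was higher by 1.96 ± 0.07, and the editing enzyme ADARB1 was lower by 1.37 ± 0.08 on the log2 scale. Of the 8 listed genes that the sensors induce, 5 were tested and all 5 were higher in A549. CCL5 was higher by 3.85 ± 0.25, CXCL10 by 3.41 ± 0.37 and IFIT1 by 3.30 ± 0.12. CXCL10 was near the limit in HEK293T with scramble, at 0.0242, 0.0175 and 0.0410 CPM. IFNL1 was called too, but was listed at 0 in all 3 HEK293T scramble libraries. OAS2, CXCL10 and IFNL1 passed the low-count filter through their A549 libraries, so only a higher call was open to them. RIPK3 was not analysed here.

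The question for each plasmid was whether these levels moved, and in which line. In A549, eGFP was accompanied by higher levels of nearly all the sensor genes than scramble was. Of the 9, 7 were higher and none was lower, against 1.46% of the 21578 genes tested that were called higher. In every one of the 7, and in ZBP1, the lowest eGFP library was above the highest scramble library, though the share of all genes separated in this way was not counted. Helicases and TLR3 rose the most, the ligase, kinase and editor less, and the adaptor MAVS did not pass the test.

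RIGI was at 374, 397 and 330.0 CPM with eGFP, against 73.8, 53.0 and 43.3 CPM with scramble. The log2 fold change was 2.69 ± 0.19 (SE, edgeR adjusted p = 0.000407), and 2.54 when the overlapping gene was added (edgeR adjusted p = 0.000133). IFIH1 was at 124, 129 and 107 CPM against 19.3, 14.4 and 12.8 CPM. It rose by 2.95 ± 0.16 (SE, edgeR adjusted p = 0.000108). DHX58 was at 2.59, 2.63 and 2.48 CPM against 0.434, 0.418 and 0.519 CPM, a rise of 2.48 ± 0.14 (SE, edgeR adjusted p = 0.000108). TLR3 was at 20.5, 19.8 and 15.3 CPM against 3.24, 2.31 and 2.64 CPM. Its rise was 2.76 ± 0.17 (SE, edgeR adjusted p = 0.000162), a value for the endosomal receptor between those of RIGI and IFIH1.

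EIF2AK2 was already high in A549 and was at 1017, 1081 and 1074 CPM with eGFP against 504, 436 and 339 CPM with scramble. Its log2 fold change was 1.31 ± 0.14 (SE, edgeR adjusted p = 0.00343). TRIM25 was at 534, 540.0 and 472 CPM against 214, 209 and 198 CPM, a rise of 1.31 ± 0.07 (SE, edgeR adjusted p = 0.000101). ADAR was at 796, 752 and 667 CPM against 382, 366 and 407 CPM, a rise of 0.93 ± 0.08 (SE, edgeR adjusted p = 0.000911). These 3 genes, the highest of the 7 per kilobase with scramble, had the smallest fold changes, and the eGFP libraries of each were clear of the scramble libraries.

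MAVS was at 220.1, 223 and 212 CPM with eGFP and at 228, 230.2 and 222 CPM with scramble. These ranges overlapped, and the log2 fold change of -0.06 had an interval (1.96 SE) from -0.15 to 0.03 (edgeR adjusted p = 0.971). ZBP1 had 133, 138 and 71 counts with eGFP against 41, 3 and 12 with scramble. It passed the low-count filter only with its eGFP libraries, so only a higher call was open to it. Its fold change of 2.52 ± 0.73 (SE) did not pass the test (edgeR adjusted p = 0.343), but did with DESeq2 (2.51, adjusted p = 0.0164) and without A549 scramble replicate 1, the library with 41 counts (3.89, edgeR adjusted p = 0.0328). Without A549 scramble replicate 3, the library with SF3B2 reads, the same count of 7 genes was called, with RIGI at 2.53, IFIH1 at 2.83, DHX58 at 2.58, TLR3 at 2.73, EIF2AK2 at 1.16, ADAR at 0.98 and TRIM25 at 1.28.

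**Figure D2:**
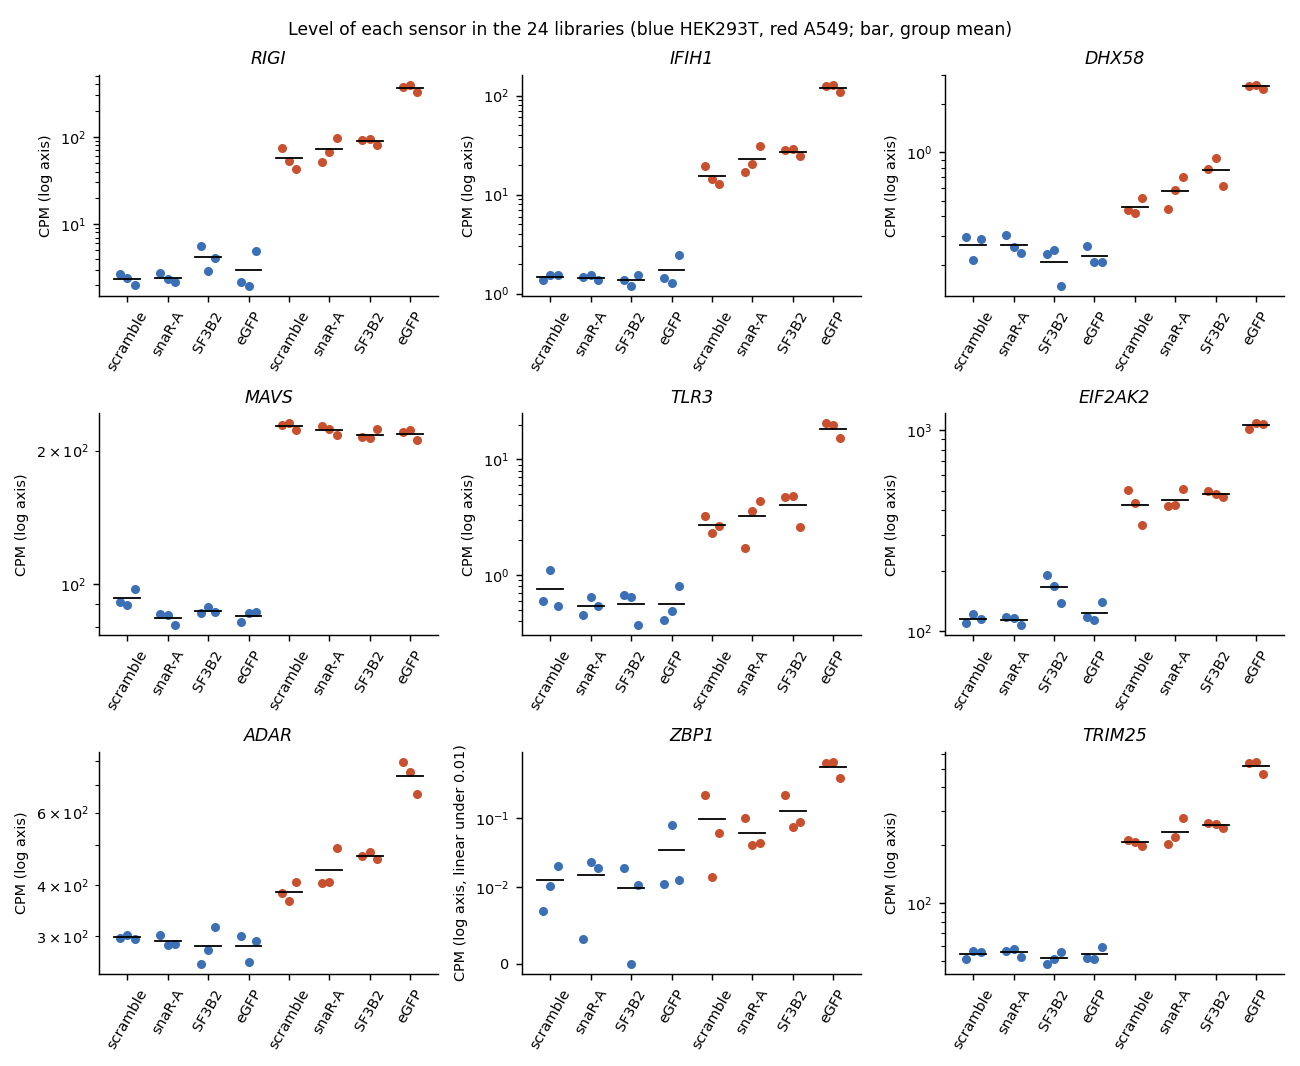
Level of each of the 9 genes (CPM, logarithmic axis, linear under 0.01 for ZBP1) in all 24 libraries, with a point for each library and a bar for the group mean. In A549 (red) the 3 eGFP libraries stand above the 3 scramble libraries in 8 of the 9 panels, MAVS being the exception. In HEK293T (blue) the eGFP and scramble points overlap in every panel but MAVS, where eGFP lies lower.

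In HEK293T the same plasmid pair gave no call among the 8 sensor genes tested (0 of 8 in edgeR's quasi-likelihood test, exactTest and DESeq2, 1 of 8 at an unadjusted p under 0.05), although 48.8% of all 22613 genes tested were called there. RIGI lay at 2.18, 1.94 and 4.86 CPM with eGFP and at 2.67, 2.38 and 2.01 CPM with scramble. Its log2 fold change of 0.35 had an interval from -0.32 to 1.02 (edgeR adjusted p = 0.424). IFIH1 lay at 1.44, 1.28 and 2.43 CPM with eGFP against 1.38, 1.52 and 1.53 CPM, a change of 0.22 with an interval from -0.25 to 0.69. In both genes the high value belonged to eGFP replicate 3, the library with A549 markers. Without it RIGI changed by -0.19 and IFIH1 by -0.11, and the part of those markers in the higher values was not tested.

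TLR3 lay at 0.407, 0.488 and 0.797 CPM with eGFP in HEK293T against 0.598, 1.11 and 0.542 CPM, with an interval from -1.09 to 0.27 for the log2 fold change. EIF2AK2 lay at 117, 114 and 139 CPM against 109, 121 and 115 CPM, with an interval from -0.07 to 0.27. For ADAR the interval ran from -0.20 to 0.06, for TRIM25 from -0.14 to 0.14 and for DHX58 from -0.65 to 0.18. The intervals of these 5 genes thus excluded changes of the size seen in A549. MAVS was lower in every eGFP library (82.0, 86.2 and 86.5 CPM) than in any scramble library (89.9 to 97.5 CPM), a change of -0.13 that did not pass the test (edgeR adjusted p = 0.0711). ZBP1, with 3, 21 and 3 counts with eGFP, was too low to be tested.

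The difference between the lines in the response to eGFP was tested as an interaction over the 12 libraries. It was called for the same 7 genes, all with the larger change in A549, where 15.6% of 24763 genes were called in that direction. The excess of the A549 change over the HEK293T change was 3.23 ± 0.44 for TLR3 (SE, log2 scale, edgeR adjusted p = 0.000576), 2.79 ± 0.32 for IFIH1, 2.78 ± 0.23 for DHX58 and 2.40 ± 0.45 for RIGI. It was smaller for TRIM25 (1.38 ± 0.12), EIF2AK2 (1.27 ± 0.19) and ADAR (1.07 ± 0.12). Without HEK293T eGFP replicate 3 and A549 scramble replicate 3 together, these values were 3.56, 3.02, 2.84, 2.80, 1.43, 1.24 and 1.14, and all 7 were still called. MAVS differed by 0.13 with an interval from -0.00 to 0.26 (edgeR adjusted p = 0.182), and ZBP1 by 1.11 with an interval from -1.69 to 3.92.

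Set against the basal gap, the response widened the distance between the lines. The ratio of the A549 mean to the HEK293T mean was 24.1 for RIGI with scramble and 123 with eGFP. For IFIH1 it went from 10.5 to 69.9, for TLR3 from 3.64 to 32.8 and for DHX58 from 1.72 to 11.4. It went from 3.71 to 8.58 for EIF2AK2, from 3.80 to 9.49 for TRIM25 and from 1.29 to 2.61 for ADAR. For MAVS it was 2.44 with scramble, 2.65 with snaR-A, 2.49 with SF3B2 and 2.57 with eGFP. The ratio of the adaptor thus lay within a narrow range, and each of the other 7 had its widest ratio with eGFP. RIGI had the largest basal ratio, but its eGFP change in A549 (2.69) was not set apart from those of IFIH1 (2.95) and TLR3 (2.76), whose intervals overlapped it, and DHX58 rose by 2.48 on the log2 scale from a basal ratio of 1.72.

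**Figure D3:**
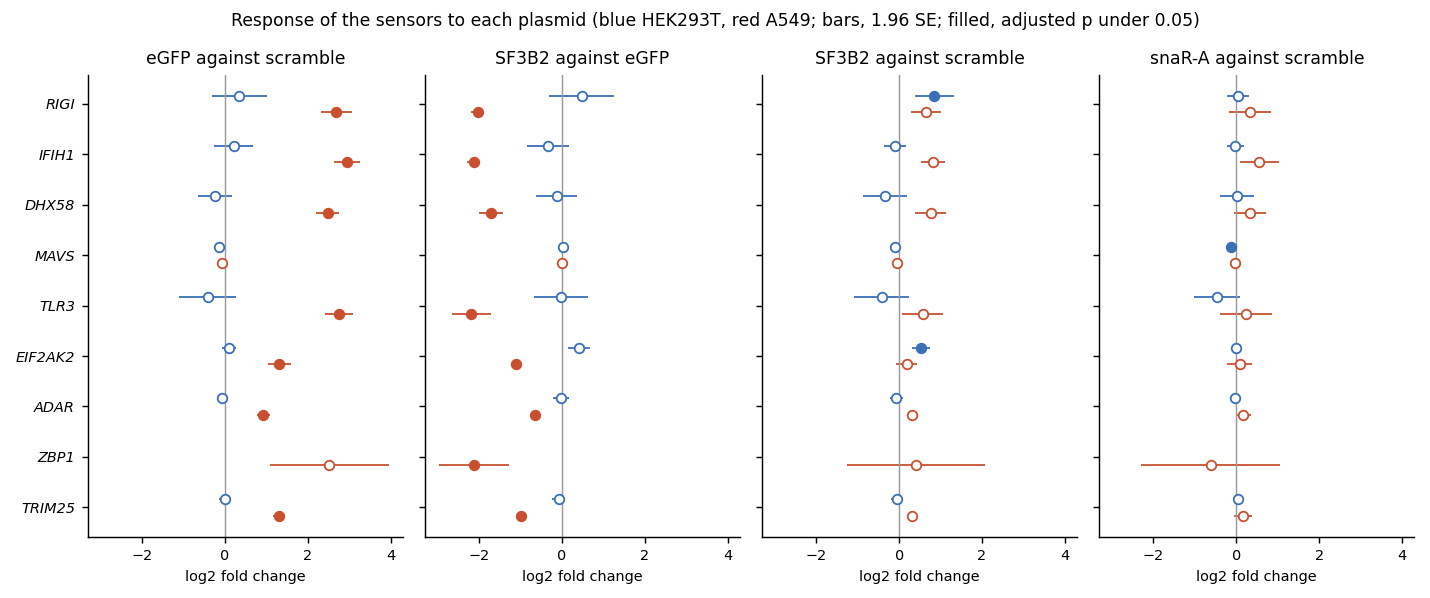
Log2 fold change of each of the 9 genes in the 4 plasmid comparisons, in HEK293T (blue) and A549 (red). Bars are 1.96 standard errors and filled points passed the test (edgeR quasi-likelihood, adjusted p under 0.05). With eGFP against scramble the A549 points of 8 genes lie between 0.93 and 2.95 and MAVS at -0.06, and with SF3B2 against eGFP the same 8 lie between -2.19 and -0.64.

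SF3B2 was compared with eGFP, which shares its backbone, and with scramble. The eGFP comparisons share the eGFP libraries, and those with scramble share the scramble libraries, so their values are given side by side only. In A549, 8 of the 9 genes were lower with SF3B2 than with eGFP, against 3.6% of the 21581 genes tested that were called lower. RIGI was at 92.6, 94.0 and 79.8 CPM with SF3B2, all under the eGFP libraries, and differed by -2.03 ± 0.08 (SE, edgeR adjusted p = 6.99e-05). IFIH1 was at 28.1, 28.8 and 24.5 CPM and differed by -2.13 ± 0.08 (SE, edgeR adjusted p = 6.99e-05). TLR3 was at 4.71, 4.78 and 2.60 CPM and differed by -2.19 ± 0.24 (SE, edgeR adjusted p = 0.00336). On the linear scale RIGI was 4.10-fold, IFIH1 4.39-fold and TLR3 4.55-fold lower with SF3B2 than with eGFP.

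DHX58, at 0.783, 0.920 and 0.613 CPM, differed by -1.72 ± 0.15 from eGFP (SE, edgeR adjusted p = 0.00131). EIF2AK2, at 499, 479 and 468 CPM, differed by -1.12 ± 0.04 (SE, edgeR adjusted p = 6.99e-05), TRIM25 by -1.0 ± 0.06 and ADAR by -0.64 ± 0.06. ZBP1, with 40, 15 and 16 counts, differed by -2.12 ± 0.43 (SE, edgeR adjusted p = 0.0329), a call lost without eGFP replicate 1 or 2 or without SF3B2 replicate 2 or 3 (edgeR adjusted p = 0.0905, 0.111, 0.12 and 0.127). MAVS differed by 0.01 with an interval from -0.07 to 0.08.

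Against scramble, none of the 9 genes was called in A549 with SF3B2 (edgeR quasi-likelihood test, where 0.233% of 21461 genes were called in either direction), but 5 passed an unadjusted p under 0.05, exactTest called 3 and DESeq2 called 4. In 5 genes, RIGI, IFIH1, DHX58, ADAR and TRIM25, every SF3B2 library was above every scramble library. The share of all genes separated in this way was not counted, so this count has no background to be read against. The log2 fold changes were 0.82 ± 0.15 for IFIH1, 0.76 ± 0.19 for DHX58, 0.65 ± 0.18 for RIGI, 0.31 ± 0.05 for TRIM25 and 0.30 ± 0.05 for ADAR (SE, edgeR adjusted p between 0.0821 for TRIM25 and 0.369 for RIGI). Without A549 scramble replicate 3, the library with 8773 CPM of SF3B2, 4 were called, with IFIH1 at 0.68 (edgeR adjusted p = 0.0146), DHX58 at 0.85 (0.0304), ADAR at 0.33 (0.00496) and TRIM25 at 0.26 (0.00693). Without scramble replicate 1, only IFIH1 was called (1.01, edgeR adjusted p = 0.0357). The group means of these 5 genes with SF3B2 thus lay between those with scramble and eGFP, as did TLR3 at 4.03 ± 1.24 CPM and EIF2AK2 at 482 CPM. The libraries of the other 4 genes overlapped scramble, with intervals from 0.09 to 1.05 for TLR3, -0.07 to 0.44 for EIF2AK2, -0.14 to 0.03 for MAVS and -1.26 to 2.07 for ZBP1.

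In HEK293T, SF3B2 against eGFP gave 0 of 8 calls (edgeR quasi-likelihood test, where 0.172% of 22623 genes were called), with 1 of 8 at an unadjusted p under 0.05, 0 with exactTest and 1 with DESeq2. That gene was EIF2AK2, at 191, 167 and 138 CPM with SF3B2 against 117, 114 and 139 CPM with eGFP. Its log2 difference was 0.41 with an interval from 0.15 to 0.67 (edgeR adjusted p = 0.171, DESeq2 adjusted p = 0.0336), and without SF3B2 replicate 3 it was called (0.55, edgeR adjusted p = 0.0464). In all 8 tested genes, EIF2AK2 included, the SF3B2 and eGFP libraries overlapped. RIGI differed by 0.48 with an interval from -0.31 to 1.26 and IFIH1 by -0.34 with an interval from -0.85 to 0.16. The intervals ran from -0.62 to 0.36 for DHX58, -0.07 to 0.12 for MAVS, -0.67 to 0.62 for TLR3, -0.21 to 0.18 for ADAR and -0.24 to 0.08 for TRIM25. Without eGFP replicate 3, the library with the most A549 marker RNA, none of the 8 was called, with RIGI at 1.02 (edgeR adjusted p = 0.207), IFIH1 at -0.01, TLR3 at 0.31 and EIF2AK2 at 0.51 (0.206). ZBP1 had 5, 0 and 3 counts with SF3B2, too few to be tested.

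Against scramble in HEK293T, 2 of 8 were higher with SF3B2, where 16.8% of 22593 genes were called higher. EIF2AK2 was above all scramble libraries (109, 121 and 115 CPM) by 0.53 ± 0.11 (SE, edgeR adjusted p = 0.0115), and RIGI, at 5.64, 2.89 and 4.10 CPM against 2.67, 2.38 and 2.01 CPM, by 0.85 ± 0.24 (SE, edgeR adjusted p = 0.0293). The RIGI call was lost without any 1 of the 3 scramble libraries (edgeR adjusted p = 0.0658, 0.0897 and 0.0987), and the EIF2AK2 call without scramble replicate 1 (edgeR adjusted p = 0.0555). Without SF3B2 replicate 3 both were called, EIF2AK2 at 0.65 (edgeR adjusted p = 0.00194) and RIGI at 0.87 (0.0385). MAVS was below every scramble library (86.2, 88.8 and 86.4 CPM) without passing the test (-0.09, edgeR adjusted p = 0.266), and IFIH1 overlapped at 1.38, 1.19 and 1.53 CPM, with an interval from -0.38 to 0.17. DHX58 (-0.87 to 0.17), TLR3 (-1.08 to 0.24), ADAR (-0.23 to 0.10) and TRIM25 (-0.20 to 0.08) overlapped scramble too.

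The difference between the lines in SF3B2 against eGFP was called for 7 genes, all lower in A549, where 3.52% of 24714 genes were called in that direction. It was -2.54 ± 0.45 for RIGI, -2.19 ± 0.45 for TLR3, -1.82 ± 0.28 for IFIH1 and -1.61 ± 0.30 for DHX58 (SE, log2 scale, edgeR adjusted p between 0.008 and 0.0236). For EIF2AK2 it was -1.56 ± 0.16 (SE, edgeR adjusted p = 0.000911), for TRIM25 -0.95 ± 0.11 and for ADAR -0.65 ± 0.13. Without HEK293T SF3B2 replicate 2, 4 of the 7 were called, with DHX58 (edgeR adjusted p = 0.0514), TLR3 (0.068) and ADAR (0.0532) outside. The call of TLR3 was lost without any 1 of 7 of the 12 libraries and that of ADAR without any 1 of 6, with edgeR adjusted p of up to 0.068 and 0.0552. Without HEK293T eGFP replicate 3, 7 genes were called, with RIGI at -3.08, TLR3 at -2.52, IFIH1 at -2.16, DHX58 at -1.56, EIF2AK2 at -1.66, TRIM25 at -1.03 and ADAR at -0.67, and 7 were called without HEK293T SF3B2 replicate 3. MAVS differed by -0.04 with an interval from -0.16 to 0.07 and ZBP1 by -0.41 with an interval from -3.15 to 2.32.

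With snaR-A, a single sensor gene was called against scramble in HEK293T and none in A549. In A549 none of the 9 was called (edgeR quasi-likelihood test, 0 also at an unadjusted p under 0.05, with exactTest and with DESeq2), where 0.0185% of 21662 genes were called. RIGI lay at 51.4, 66.9 and 96.7 CPM with snaR-A against 73.8, 53.0 and 43.3 CPM, and IFIH1 at 16.8, 20.3 and 30.9 CPM against 19.3, 14.4 and 12.8 CPM. Both pairs overlapped, with intervals of the log2 fold change from -0.18 to 0.85 and from 0.07 to 1.02 (edgeR adjusted p = 0.842 and 0.794). Replicate 3, whose label fields disagree, was the highest of its group in 7 of the 9 genes. Without it RIGI changed by 0.05, IFIH1 by 0.25, TLR3 by -0.06 and EIF2AK2 by -0.02, and without scramble replicate 3 these changes were 0.17, 0.42, 0.21 and -0.06, with none of the 9 called. For EIF2AK2 the interval over all libraries ran from -0.21 to 0.37 and for MAVS from -0.11 to 0.05, so the eGFP change of EIF2AK2 lay outside it. The other intervals ran from -0.40 to 0.86 (TLR3), -0.07 to 0.73 (DHX58), -0.00 to 0.34 (ADAR), -0.04 to 0.39 (TRIM25) and -2.30 to 1.06 (ZBP1), each with overlapping libraries.

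In HEK293T with snaR-A, 1 of 8 genes was called and 18.5% of 22667 genes were called lower. MAVS was at 85.7, 85.0 and 80.9 CPM against 91.0, 89.9 and 97.5 CPM, a change of -0.14 ± 0.05 (SE, edgeR adjusted p = 0.0463). The call was lost with RLE size factors (-0.13, edgeR adjusted p = 0.0596), with scaling by totals alone (-0.04, 0.589) and without any 1 of 5 of the 6 libraries. RIGI, at 2.72, 2.33 and 2.17 CPM, changed by 0.04 with an interval from -0.22 to 0.30, IFIH1 by -0.02 with an interval from -0.22 to 0.19 and EIF2AK2 by -0.01 with an interval from -0.11 to 0.09. TLR3 (-1.01 to 0.08), DHX58 (-0.39 to 0.41), ADAR (-0.10 to 0.06) and TRIM25 (-0.07 to 0.14) overlapped as well. Between the lines, 0 of 9 genes differed in the response to snaR-A (edgeR quasi-likelihood test, 0 at an unadjusted p under 0.05 and 0 with DESeq2), where 11.4% of 24784 genes were called. The intervals of these differences ran from -0.37 to 0.93 for RIGI, -0.01 to 1.12 for IFIH1, -0.29 to 0.90 for DHX58, -0.03 to 0.22 for MAVS, -0.25 to 1.61 for TLR3, -0.26 to 0.41 for EIF2AK2, -0.02 to 0.38 for ADAR and -0.13 to 0.39 for TRIM25. ZBP1, with few counts, had the widest, from -3.50 to 1.70.

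Among the other genes of the pathways, listed by role, some roles held calls in A549 and others held none. With eGFP against scramble, 14 of 48 tested were higher and 0 lower, where 1.46% of all 21578 genes were called higher and 7 genes lower. All 8 genes that the sensors induce were among them. Of these, IFNB1, IFNL2 and IFNL3 passed the low-count filter only with their eGFP libraries, so only a higher call was open to them. The interferons were at low levels, IFNB1 at 1.31, 1.54 and 1.08 CPM with eGFP against 0.0477, 0.121 and 0.183 CPM, a rise of 3.47 ± 0.41 (SE, edgeR adjusted p = 0.00595). IFNL1 rose by 3.70 ± 0.22 (edgeR adjusted p = 0.000143), IFNL2 by 4.41 ± 0.64 (0.0173) and IFNL3 by 3.88 ± 0.54 (0.0146). The calls of IFNL2 and IFNL3 were lost without eGFP replicate 1 or 2 or scramble replicate 2 (edgeR adjusted p up to 0.132 and 0.0921) and that of IFNB1 without scramble replicate 2 (0.0544). The type III interferon genes are close copies of each other, IFNL2 and IFNL3 above all, and the estimate of how reads split between them is uncertain. In HEK293T the counts of all 4 interferon genes stayed near 0, at 0 to 0.0212 CPM.

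The 4 oligoadenylate synthetase genes rose in A549 with eGFP, OAS2 the most, from 11.3, 9.18 and 9.84 CPM to 176, 176 and 134 CPM (4.0 ± 0.14, SE, edgeR adjusted p = 6.35e-05). OASL rose by 3.18 ± 0.18, OAS1 by 2.17 ± 0.11 and OAS3 by 2.04 ± 0.09. Of the regulators of the RIG-I-like receptors 1 of 6 rose, DDX60 by 2.13 ± 0.12, and of ZBP1 partners 1 of 4, MLKL by 0.67 ± 0.05. The signalling genes below the adaptors gave 0 of 9 calls, the PKR axis 0 of 7 and the other binding proteins 0 of 8 (edgeR quasi-likelihood test, with 1, 0 and 0 at an unadjusted p under 0.05 and 0 in each with exactTest and DESeq2). TBK1, the kinase of IRF3, was at 129 ± 3.64 against 126 ± 6.02 CPM and IRF3 at 61.9 ± 4.67 against 59.6 ± 6.98 CPM (SD, n = 3). The differences of these kinase and transcription factor genes were smaller than the spread between replicates, whereas the receptors and the induced genes were clear of it.

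With SF3B2 against eGFP in A549, 18 of 48 were lower and 0 higher, again with all 8 induced genes, all 4 OAS genes and 3 of 4 ZBP1 partners. Of all 21581 genes tested, 3.6% were called lower and 739 genes higher. OAS2 differed by -2.65 ± 0.14 (SE, edgeR adjusted p = 0.000154), OASL by -1.92 ± 0.18, OAS1 by -1.48 ± 0.11 and OAS3 by -1.40 ± 0.09. Of the induced genes, IFNL2 differed by -2.26 ± 0.34, IFIT1 by -2.15 ± 0.13, IFNL1 by -2.15 ± 0.17 and IFNB1 by -2.11 ± 0.29. The calls of IFNL2 and IFNB1 were lost without SF3B2 replicate 1 (edgeR adjusted p = 0.0512 and 0.0509), and that of IFNL2 also without SF3B2 replicate 3 (0.0733) or eGFP replicate 2 (0.0546). DDX60 differed by -1.51 ± 0.11 and CASP8 by -0.45 ± 0.04. Against scramble, 6 of 48 were higher with SF3B2, where 0.214% of all genes were called higher, among them OAS2 by 1.35 ± 0.12, OASL by 1.26 ± 0.16 and IFIT1 by 1.17 ± 0.14. Each of these 3 lost its call without 1 or more of the 6 libraries, with edgeR adjusted p of up to 0.147, 0.269 and 0.249. With snaR-A, 0 of 48 were called in A549 (edgeR quasi-likelihood test, 8 at an unadjusted p under 0.05, 0 with exactTest and 1 with DESeq2), and OAS2 lay at 12.6, 15.6 and 27.3 CPM.

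In HEK293T with eGFP, 13 of 43 were higher and 9 lower, where 22.9% and 25.8% of all genes were called in these directions. CCL5, at 0.836, 0.853 and 0.920 CPM against 0.256, 0.392 and 0.209 CPM, and ISG15, at 2.11, 2.25 and 2.11 CPM against 0.889, 0.923 and 0.973 CPM, stayed called with each library left out in turn (edgeR adjusted p up to 0.0096 and 0.00218). OAS2 was at 0.0560, 0.0615 and 0.665 CPM against 0.0277, 0.0280 and 0.0123 CPM, and without eGFP replicate 3, the library with A549 markers, its call was lost (1.34, edgeR adjusted p = 0.0683), as it was without any 1 of the scramble libraries (3.20 to 3.64, edgeR adjusted p up to 0.1). OAS2 passed the low-count filter through its eGFP libraries, so only a higher call was open to it. OAS1 was at 4.62 CPM in eGFP replicate 3 and at 0.164 and 0.342 CPM in the other eGFP libraries. NLRP1, an inflammasome sensor that binds double-stranded RNA, was low at 0.310 ± 0.113 CPM with eGFP against 0.143 ± 0.0325 CPM (SD, n = 3), a rise of 1.11 ± 0.31 (SE, edgeR adjusted p = 0.0209). Its call was lost without eGFP replicate 1 (0.81, edgeR adjusted p = 0.0764), scramble replicate 2 (1.04, 0.0703) or scramble replicate 3 (0.99, 0.0702).

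Between the lines, the eGFP change in A549 exceeded that in HEK293T by 3.51 ± 0.39 for IFIT1 (SE, log2 scale, edgeR adjusted p = 0.000168), 2.93 ± 0.49 for OASL, 2.92 ± 0.61 for CXCL10, 2.79 ± 0.25 for DDX60 and 1.91 ± 0.32 for ISG15, each still called with any 1 of the 12 libraries left out. In HEK293T, CXCL10 was near the limit, at 0.0149 to 0.0346 CPM with eGFP and 0.0175 to 0.0410 CPM with scramble. Its change in that line was therefore poorly measured. OAS3 differed by 1.49 ± 0.49 (edgeR adjusted p = 0.0433), a call lost without any 1 of 10 of the 12 libraries, while without HEK293T eGFP replicate 3, the library with A549 markers, it was 2.22 (8.89e-06). In SF3B2 against eGFP, the A549 change minus the HEK293T change was -2.25 ± 0.37 for IFIT1 (SE, edgeR adjusted p = 0.0101) and -1.43 ± 0.26 for DDX60 (0.0154), both called with any 1 library left out.

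**Figure D4:**
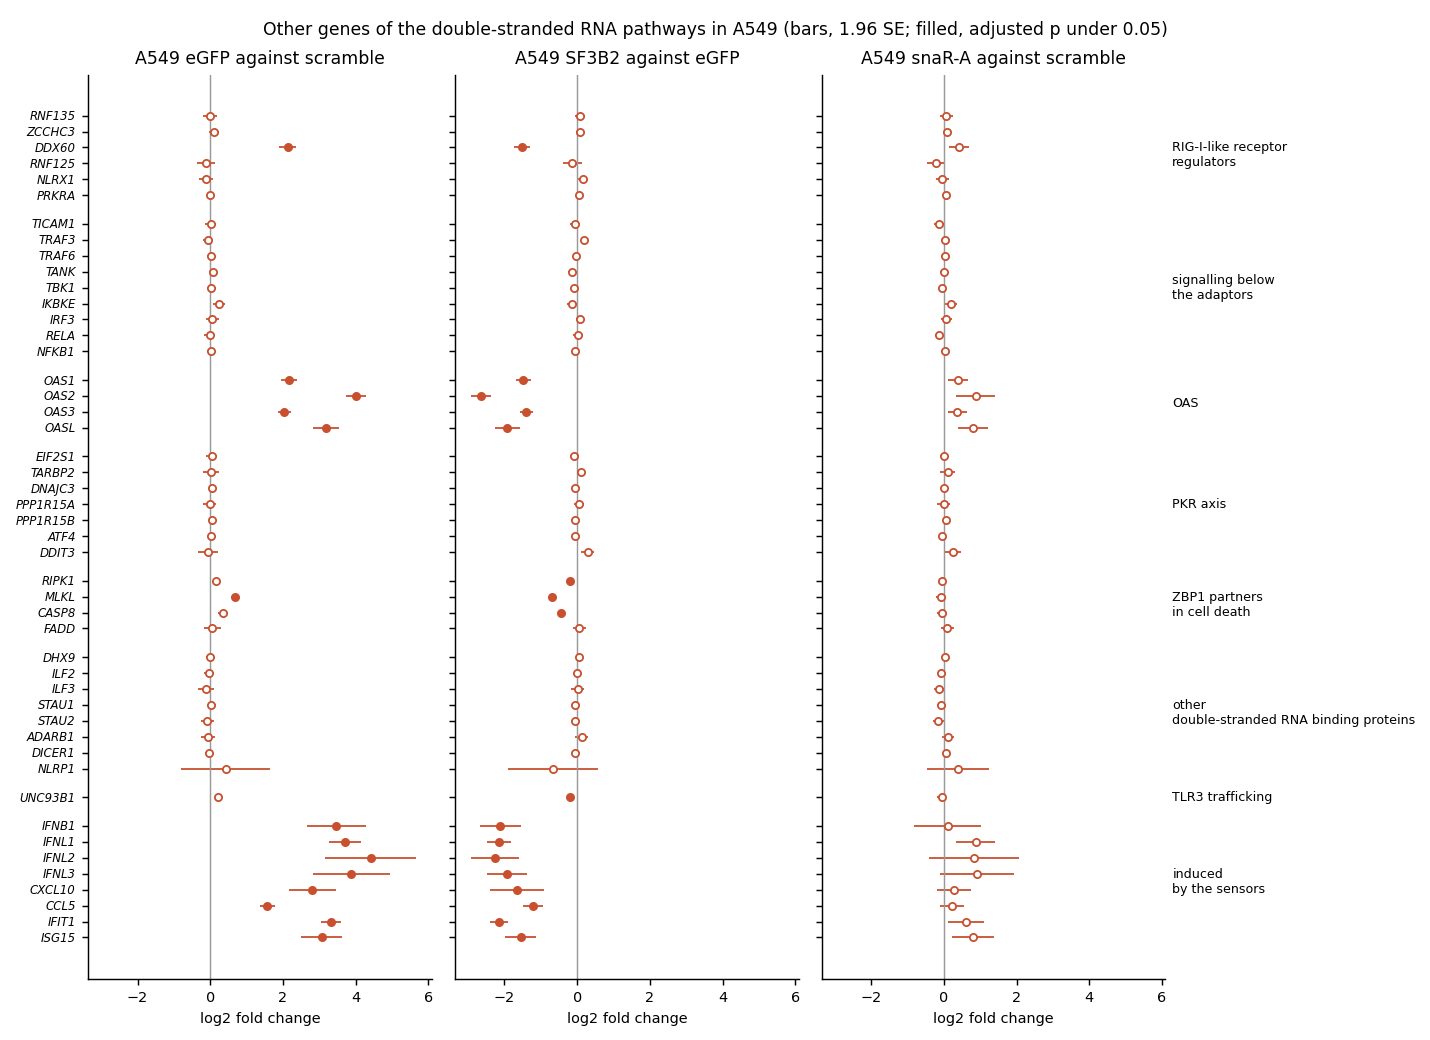
Log2 fold change of the other genes of the double-stranded RNA pathways in A549, grouped by role, for eGFP against scramble, SF3B2 against eGFP and snaR-A against scramble. Bars are 1.96 standard errors and filled points passed the test (edgeR quasi-likelihood, adjusted p under 0.05). The 8 induced genes, 4 OAS genes and DDX60 lie between 1.57 and 4.41 in the first panel, and no point is filled in the last.

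For the sensor genes, the genes with the most similar pattern over the 24 libraries were found. Likeness was the root mean square difference of log2 CPM, each centred on its own mean, among 13512 genes with a symbol and a mean of at least 1 CPM. It was smallest with IFIT1 (0.41) and GBP3 (0.43) for RIGI, SP110 (0.21) and IFIT1 (0.24) for IFIH1, and IFITM3 (0.33) and UBE2L6 (0.42) for TLR3. For EIF2AK2 the nearest were SP140L (0.23) and HERC6 (0.24), and for TRIM25 PHF11 (0.15) and HERC6 (0.16). MAVS was nearest to KIF13A and CDC42BPB (0.06 each). The libraries came from 2 lines, so the step between the lines is part of every such pattern, and genes whose level varied little lie close together on this measure. DHX58 and ZBP1 were under the minimum mean.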

How the data were processed

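Poly(A)+, rRNA-depleted RNA was sequenced from HEK293T and A549 cells 48 h after transfection, with 3 libraries for each of 8 groups of cell line and plasmid, grouped by the labels. The authors deposited estimated counts per Ensembl gene (60236 genes in 24 libraries), made with Trim Galore and Salmon on hg38 per the submitters' processing notes, and 51.0% of the values are not whole. The transcript release and the step that summed transcripts to genes are not given in the sources used here. Salmon divides reads between transcripts that share sequence by estimate, which can move counts between overlapping genes. Totals of 195186194 to 260878268 counts set a floor (3 counts) of 0.0115 to 0.0154 CPM without TMM scaling, which covers counting error only.

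The counts were rounded and tested with edgeR 4.0.16 in R 4.3.3 (filterByExpr, TMM, glmQLFit and glmQLFTest), within the libraries of each comparison and with Benjamini-Hochberg adjustment over all genes tested, at a threshold of 0.05. Differences between lines in a response were interaction terms. Intervals are 1.96 standard errors, and CPM use TMM-scaled totals. Levels between genes were divided by exon length (GENCODE release 44). Alternatives were RLE size factors, library size alone, no low-count filter, exactTest, DESeq2 1.42.0, a replicate block, all libraries of the line or series, and each library left out. RIGI summed with its overlapping gene, the omission of both libraries that stand apart, and the shorter promoter motif were chosen after seeing the data. In total 193 fits were run. Simulated data with 200 changed genes for A549 eGFP against scramble (21537 genes) gave 200 recovered and 5 false calls, for A549 against HEK293T with scramble (22218 genes) 198 of 199 and 9 false calls, and for the difference between the lines in eGFP against scramble (24239 genes) 191 of 200 and 15 false calls.

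The sensor genes and the gene lists were chosen with earlier results of these data known. Every sensor gene is named in every comparison in which it was tested. Of a list of 50 other pathway genes, those past the threshold whose log2 fold change was over 1 in size are named, at most 4 for each role and comparison, and TBK1, IRF3, MLKL and CASP8 where they changed by less, and OAS1 in HEK293T with eGFP, were named after their values were seen. RIPK3 was not analysed here, and some results on other genes are not reported here. Equal replicate numbers did not pair the libraries. No 2 replicates agreed within sampling noise. Tables and figures were made with Python 3.11.15, pandas 2.3.3, numpy 2.4.6 and matplotlib 3.10.9.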

Additional observations from a re-analysis of the deposited data

Results flagged for a closer look

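For 14 values the test of the difference between the lines passed its threshold (edgeR quasi-likelihood test of the interaction, Benjamini-Hochberg adjusted). In eGFP against scramble, the change in A549 exceeded that in HEK293T by 2.40 (RIGI), 2.79 (IFIH1), 2.78 (DHX58), 3.23 (TLR3), 1.27 (EIF2AK2), 1.07 (ADAR) and 1.38 (TRIM25) on the log2 scale. In SF3B2 against eGFP, the A549 change minus the HEK293T change was -2.54 (RIGI), -1.82 (IFIH1), -1.61 (DHX58), -2.19 (TLR3), -1.56 (EIF2AK2), -0.65 (ADAR) and -0.95 (TRIM25). Both sets share the eGFP libraries.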

How the results depend on the processing

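Away from the left-out libraries, results were counted over combinations of called gene, comparison and setting. Direction and call were kept in 288 and the call was lost in 10. The direction reversed in 1, ADAR between the lines at -0.09 with scaling by library size alone. Counts of called sensor genes that changed by over 1.5 times were, for HEK293T eGFP against scramble, 1 with all 12 libraries of the line. For HEK293T SF3B2 against eGFP the count was 1 with DESeq2 and 1 with all 12 libraries, and for SF3B2 against scramble 1 with all 12. For HEK293T snaR-A against scramble it was 0 with RLE size factors and 0 with library size alone. For A549 SF3B2 against scramble it was 1 with no low-count filter, 3 with exactTest and 4 with DESeq2.

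Leaving out each library gave 0 to 1 calls for HEK293T SF3B2 against eGFP, 0 to 2 for SF3B2 against scramble, 0 to 1 for snaR-A, 0 to 4 for A549 SF3B2 against scramble and 4 to 7 for the difference between the lines in SF3B2 against eGFP. A549 eGFP against scramble and SF3B2 against eGFP gave 7 to 8, and the basal comparison 7 to 9.

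Replicate numbers did not pair the libraries. Over 18 pairs in each line the deviations of equal numbers correlated with a median of -0.0614 in A549 (-0.357 to 0.254) and 0.0495 in HEK293T (-0.11 to 0.317), and 11 and 14 of 36 correlated best with their own number. With the replicate block, 6 genes were called for A549 eGFP against scramble (EIF2AK2 1.32, edgeR adjusted p = 0.0529), 0 for HEK293T snaR-A and 5 for the SF3B2 difference between the lines, and the other counts were 0, 0, 2, 8, 0, 0, 8, 7 and 0, as without it.

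Genes that were not called reversed as follows. With library size alone the values were 0.03 for ADAR and 0.10 for TRIM25 in HEK293T eGFP against scramble (TRIM25 0.02 with RLE and DESeq2), -0.14 for MAVS in HEK293T SF3B2 against eGFP, 0.08 for IFIH1, 0.09 for EIF2AK2 and 0.08 for ADAR in HEK293T snaR-A, -0.01 for MAVS in A549 SF3B2 against eGFP (-0.00091 with RLE and -0.00094 with DESeq2), 0.04 for MAVS in A549 snaR-A, and -0.00098 and 0.12 for MAVS in the eGFP and SF3B2 differences between the lines. DHX58 was -0.0029 in HEK293T snaR-A with all 12 libraries.

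With libraries left out, the ranges that crossed 0 were, in HEK293T eGFP against scramble, -0.19 to 0.58 (RIGI), -0.11 to 0.38 (IFIH1) and -0.07 to 0.03 (TRIM25). They were -0.26 to 0.09 (DHX58), -0.001 to 0.05 (MAVS), -0.21 to 0.31 (TLR3) and -0.08 to 0.05 (ADAR) in HEK293T SF3B2 against eGFP, and -0.19 to 0.00077 (IFIH1) and -0.15 to 0.01 (ADAR) against scramble. In HEK293T snaR-A they were -0.06 to 0.14 (RIGI), -0.07 to 0.02 (IFIH1), -0.13 to 0.10 (DHX58), -0.05 to 0.02 (EIF2AK2) and -0.01 to 0.07 (TRIM25). In A549 they were -0.02 to 0.02 (MAVS, SF3B2 against eGFP), -0.26 to 1.77 (ZBP1, SF3B2 against scramble), and with snaR-A -0.06 to 0.53 (TLR3), -0.06 to 0.22 (EIF2AK2) and -1.17 to 0.75 (ZBP1). Between the lines they were -1.93 to 0.33 (ZBP1, SF3B2), -0.04 to 0.24 (EIF2AK2, snaR-A) and -1.42 to 0.49 (ZBP1, snaR-A).

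Library size alone moved the share of higher calls from 47% to 61.6% (HEK293T eGFP against scramble), 23.1% to 7.94% (SF3B2 against eGFP), 49% to 72.9% (snaR-A), 48.7% to 36.2% (A549 SF3B2 against eGFP), 50% to 66.7% (A549 snaR-A, 4 and 3 calls), and between the lines 59.1% to 38% (eGFP), 42.3% to 76% (SF3B2) and 41.9% to 31.9% (snaR-A, 55% with RLE). The causes were not tested. Counts of ZBP1 and DHX58 limit what their values can show.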
